A study of Mus musculus with 21 samples.

Results

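Mouse embryonic stem cells labelled CH+LIF HP were compared with cells labelled 2i+LIF HP, 3 libraries in each group and 6 of the 21 libraries in the study. The line used, E14Tg2a, is male and comes from 129 mice, and at the Zfp42 (Rex1) locus 1 allele carries the coding sequence of GFPd2, a short-lived green fluorescent protein. All groups descend from cells kept in NDiff227, a serum-free medium, with the GSK3 inhibitor CHIR99021 at 3 uM and the MEK inhibitor PD0325901 at 1 uM. Both groups carry CH (CHIR99021) and the cytokine LIF in their labels. By the usual meaning of 2i, the label 2i+LIF adds PD0325901, and the label CH+LIF leaves it out. The protocol text, which is shared by all libraries, describes drugs being given and withdrawn at each passage, so what the cells were in when collected rests on the label. The labels do not say how long HP and LP cultures lasted. Nor do they say whether replicates were separate cultures, so the p-values below measure only the spread between these libraries.

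MEK is the kinase that activates ERK downstream of FGF receptors, and in mouse embryonic stem cells FGF4 made by the cells themselves drives this pathway toward exit from the naive pluripotent state. Inhibition of GSK3 stabilises beta-catenin, which acts with TCF/LEF factors on Wnt target genes and relieves repression by TCF7L1 of pluripotency genes. LIF acts through STAT3. Nodal and its coreceptor, and BMP4 with its Id targets, are further signals that these cells make and respond to.

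The 6 libraries held between 1132126 and 2084432 counts assigned to genes, and 12409 to 13963 genes had at least 1 count. The share of mitochondrial counts was 1.25 to 3.05% in 2i+LIF HP and 3.62 to 9.84% in CH+LIF HP, ranges that do not overlap. With mitochondrial genes and the ribosomal-overlapping locus Gm42418 removed, 218 genes were called in place of 215, and the part of these shares in single genes was not tested. Replicates differed by more than sampling noise, with a chi-square per degree of freedom of 4.82 to 26.9. Outside the groups compared, 2i+LIF LP replicate 1 (31.7% of counts from Gm42418) and 2i+LIF PO replicate 1 (39.1% mitochondrial) stood apart from their replicates. These 2 libraries entered the HP comparison through the shared estimate of spread, the low-count filter and the scaling. Both also count in the means of their groups and the correlations over 21 libraries, and the first also in the LP comparison. The 5 embryonic stem cell markers checked (Pou5f1, Sox2, Nanog, Zfp42 and Esrrb) had counts in both groups, with summed levels of 605 to 1106 CPM in 2i+LIF HP and 1091 to 1358 CPM in CH+LIF HP. Levels are given as CPM, counts scaled by library total (marker sums use plain totals, single genes TMM-scaled ones), and levels of different genes are not compared because CPM take no account of transcript length.

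Of 10643 genes tested, 215 passed an edgeR adjusted p of 0.05 (2.02%). They comprised 117 that were higher in CH+LIF HP (1.1%) and 98 that were lower (0.921%). For 214 of the 215, the CPM values of the 2 groups did not overlap, as was the case for 19.7% of all genes tested. The median log2 fold change was 2.69 among the genes that rose and -2.62 among those that fell, against -0.01 over all genes, and the smallest called changes were 1.30 and -1.26. With both libraries that stood apart left out of the fit, 543 genes passed, including all 215. Of the 215 genes, 58, 121 and 104 were no longer called without 2i+LIF HP replicates 1, 2 and 3. Without CH+LIF HP replicates 1, 2 and 3, the call was lost for 81, 109 and 101 of them. The 2i+LIF HP libraries were not alike among the genes that fell, since replicate 1 was the lowest of its group for 68 of those 98 genes (69.4%) and for 31.8% of all genes.

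**Figure D1:**
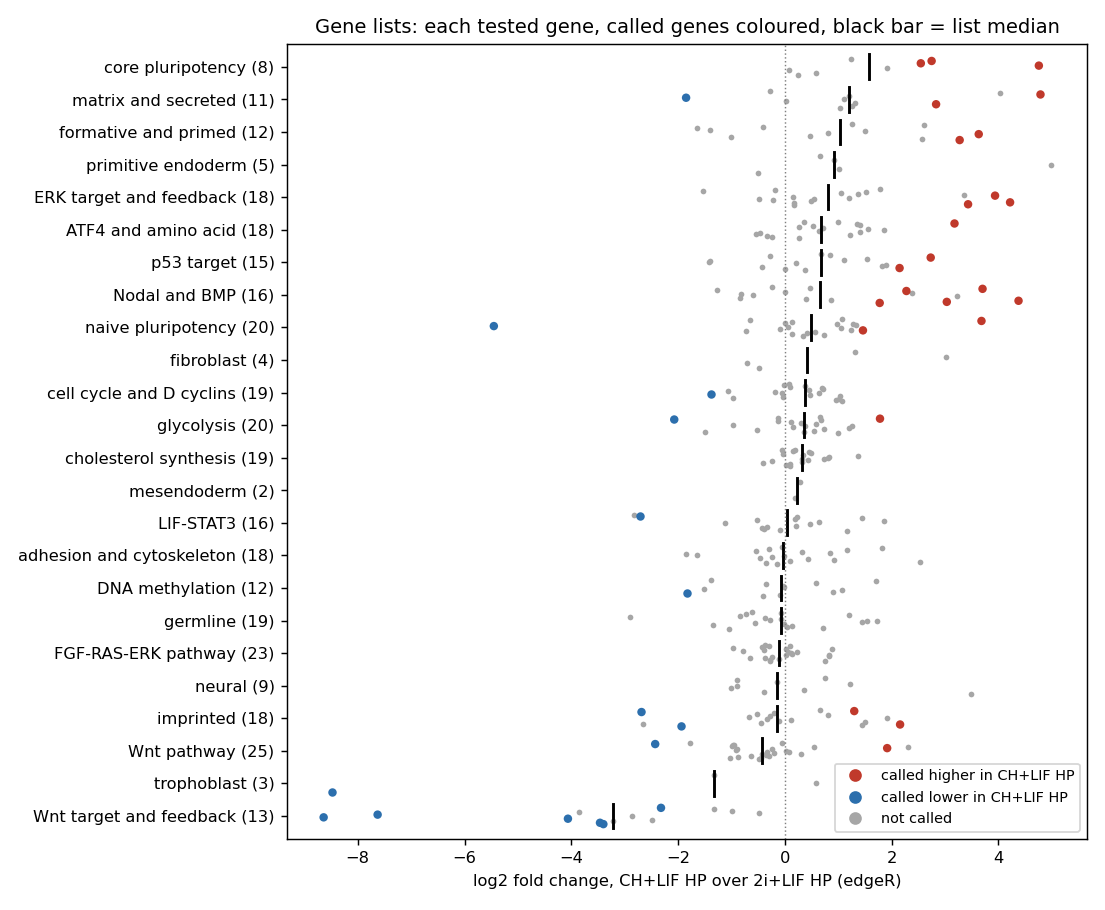
Each point is the log2 fold change of 1 tested gene (horizontal axis, CH+LIF HP over 2i+LIF HP), by gene list with the number of tested genes in brackets. Coloured points passed an edgeR adjusted p of 0.05 and black bars are list medians, and the Wnt target list has its median at -3.21 with 6 genes called lower and 0 called higher. Fitted values of genes without counts in 1 group depend on the prior count.

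A few targets and feedback inhibitors of ERK were higher in CH+LIF HP, the group whose label lacks the MEK inhibitor. Of 18 tested genes on this list, 3 rose (Dusp6, Egr1 and Spry4), 0 fell and 15 did not pass, and the list's median log2 fold change was 0.80. This and the other list counts stand against 1.1% of all genes that rose and 0.921% that fell. Between 1 and 4 targets rose without any 1 library, and 7 without both libraries that stood apart. Dusp6, a phosphatase that dephosphorylates ERK (chr10:99263231-99267489 in GRCm38, the build of all positions here), had 2.32, 4.91 and 2.88 CPM in 2i+LIF HP replicates 1 to 3 and 30.5, 40.5 and 40.4 CPM in CH+LIF HP. The lowest CH+LIF HP library was thus far above the highest 2i+LIF HP library, and the log2 fold change was 3.43 ± 0.72 (SE, edgeR adjusted p = 0.00781, n = 3 per group). Its call held without any 1 of the 21 libraries, with an adjusted p of at most 0.0476. Values were higher without overlap for 10 of the 18 tested targets and lower without overlap for 0, against 10.3% and 9.45% of all genes.

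Egr1, an immediate-early transcription factor induced by ERK, had 0.93, 2.73 and 0.958 CPM in 2i+LIF HP against 14.9, 14.3 and 47.2 CPM in CH+LIF HP. The groups did not overlap, and CH+LIF HP replicate 3 was far above the other libraries of its group (log2 fold change 3.94 ± 0.95, edgeR adjusted p = 0.0231). Without that library the adjusted p was 0.155, and it was also over the threshold without any 1 of the 2i+LIF HP libraries (0.0678 at the lowest) and by limma-voom (0.11). Spry4, a feedback inhibitor of receptor tyrosine kinase signalling, had counts in 1 of 3 libraries of 2i+LIF HP (0, 1.09 and 0 CPM) and in all of CH+LIF HP (6.49, 4.29 and 15.2 CPM). Its 39 against 2 pooled counts give a ratio of 18.9 with a 95% counting interval of 4.89 to 162 (edgeR adjusted p = 0.032). This call was lost without 2i+LIF HP replicate 1 or 3 or CH+LIF HP replicate 1 or 3, with adjusted p of 0.0554 to 0.187, and by limma-voom (0.084).

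The other ERK targets did not pass the edgeR test, and their values differed in direction. Etv4, an ETS factor of the PEA3 family, had 68.8, 21.8 and 40.3 CPM in 2i+LIF HP against 96.7, 104 and 102 CPM in CH+LIF HP, without overlap but short of the threshold (edgeR adjusted p = 0.0912, and 0.0316 by DESeq2). Fos, an AP-1 subunit, had at most 0.958 CPM in 2i+LIF HP and 1.95 to 9.14 CPM in CH+LIF HP (adjusted p = 0.066 by edgeR). Ier2, an immediate-early gene, had 30.7 to 36 CPM against 59 to 74.6 CPM (edgeR adjusted p = 0.277). Phlda1, by contrast, had 24.2, 183 and 77.6 CPM in 2i+LIF HP against 17.5, 48.7 and 31.2 CPM in CH+LIF HP, values that overlap (edgeR adjusted p = 0.149). On the list of the pathway itself (ligands, receptors, RAS, RAF, MEK and ERK), 0 of 23 tested genes passed by edgeR, DESeq2 or limma-voom, 3 had an unadjusted p under 0.05, and the median was -0.12. Fgf4, the ligand, had 84.6, 34.9 and 51.8 CPM in 2i+LIF HP against 86.3, 102 and 101 CPM in CH+LIF HP (edgeR adjusted p = 0.419), and Map2k1, which encodes MEK1, had 15.3 to 22.3 CPM and 9.14 to 12.3 CPM (0.555).

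**Figure D2:**
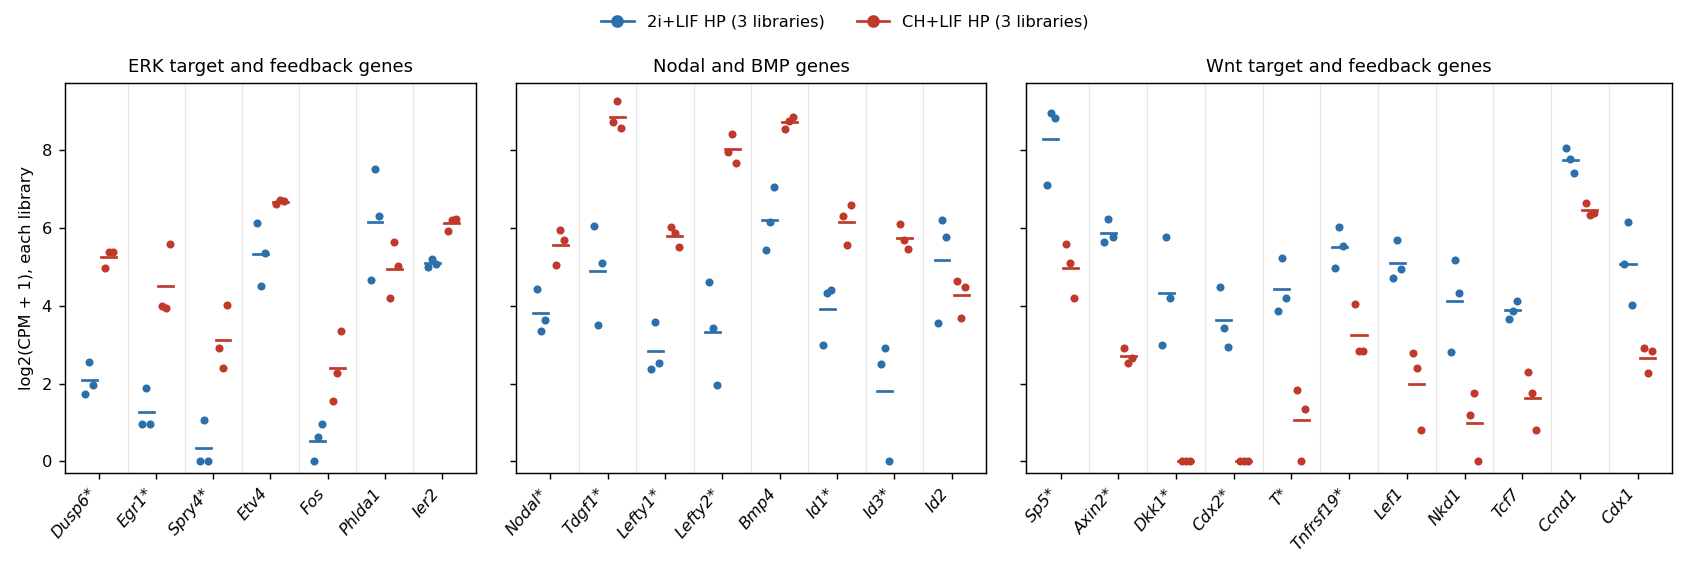
Each point is log2(CPM + 1) in 1 library, for ERK targets, Nodal and BMP genes and Wnt targets; bars are means of the 3 libraries of 2i+LIF HP (blue) and CH+LIF HP (red), and an asterisk marks an edgeR adjusted p under 0.05. Dusp6, Tdgf1, Lefty1, Lefty2 and Id3 lie higher in every CH+LIF HP library than in any 2i+LIF HP library, whereas Sp5 and Axin2 lie lower and Dkk1 and Cdx2 have no counts in CH+LIF HP.

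Wnt target and feedback genes were among those that fell in CH+LIF HP, although both groups carry the GSK3 inhibitor in their labels. Of 13 tested genes, 0 rose and 6 fell (Sp5, Axin2, Dkk1, Cdx2, T and Tnfrsf19), all 13 fitted log2 fold changes were below 0, and the median was -3.21. Some members not named here changed sign when 1 library was left out. Without both libraries that stood apart 11 of the 13 fell, and leaving out 1 library at a time gave between 2 and 11. The 250 bases before the RefSeq gene start (GRCm38.p6) are printed for Sp5, Axin2 and T, 3 of the genes that fell, to show where the letters CTTTGA, the core that TCF/LEF factors are known to bind, occur. Capitals mark CTTTGA on the strand shown, or TCAAAG where it lies on the other strand.
Sp5 (chr2:70474673-70474922, plus strand): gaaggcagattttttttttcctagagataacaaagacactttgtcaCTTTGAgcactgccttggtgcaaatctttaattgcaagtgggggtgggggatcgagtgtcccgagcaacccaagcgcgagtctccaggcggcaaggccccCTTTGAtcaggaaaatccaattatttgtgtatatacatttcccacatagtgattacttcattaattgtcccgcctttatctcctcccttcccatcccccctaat
T (chr17:8434173-8434422, plus strand): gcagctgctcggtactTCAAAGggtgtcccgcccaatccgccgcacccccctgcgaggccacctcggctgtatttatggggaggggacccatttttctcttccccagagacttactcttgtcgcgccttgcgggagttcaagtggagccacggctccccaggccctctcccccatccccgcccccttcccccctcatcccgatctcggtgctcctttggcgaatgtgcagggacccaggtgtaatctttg
Axin2 (chr11:108920099-108920348, plus strand): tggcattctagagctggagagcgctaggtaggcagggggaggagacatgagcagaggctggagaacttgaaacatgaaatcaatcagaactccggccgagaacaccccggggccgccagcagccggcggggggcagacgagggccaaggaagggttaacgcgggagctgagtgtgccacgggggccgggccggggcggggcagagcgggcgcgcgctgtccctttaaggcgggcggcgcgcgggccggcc

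The Sp5 window holds the letters at 204 and 104 bases before the start and the T window at 234 bases before it, while the Axin2 window holds none. Dkk1 has them at 174 and 117 bases before its RefSeq start, Tnfrsf19 at 201 bases before 1 of its starts, and Cdx2 has none in its window. Among genes with a listed promoter, on either strand and at any listed start, the letters occurred for 19 of 79 genes that fell (24.1%) and 7 of 86 that rose (8.14%). They occurred for 12.4% of the 8435 tested genes and 15.8% of all 27025 genes with a promoter in the table. These are counts of letters in a fixed window and say nothing about binding. The windows also differed in base composition, with a median observed-over-expected CpG ratio of 0.575 for genes that fell, 0.689 for those that rose and 0.780 for all tested, and its part in these shares was not tested.

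Sp5, a zinc finger factor and direct Wnt target (chr2:70474923-70477729), had 135, 494 and 455 CPM in 2i+LIF HP against 46.7, 33.4 and 17.5 CPM in CH+LIF HP. Replicate 1 was the lowest of the 2i+LIF HP libraries and still lay above every CH+LIF HP library (log2 fold change -3.46 ± 0.68, edgeR adjusted p = 0.00494). Axin2, the scaffold that promotes beta-catenin degradation as negative feedback (chr11:108920349-108950783, overlapping Gm11670 on the other strand), had 48.8, 73.6 and 53.7 CPM in 2i+LIF HP against 6.49, 4.77 and 5.33 CPM in CH+LIF HP. The values within each group were close together, and the log2 fold change was -3.40 ± 0.76 (edgeR adjusted p = 0.0137). The call for Sp5 held without any 1 library (adjusted p of at most 0.0464). That for Axin2 was lost without 2i+LIF HP replicate 2 or any 1 of the CH+LIF HP libraries, at 0.0577 to 0.106.

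Dkk1, a secreted inhibitor of Wnt coreceptors (chr19:30545863-30549665), had 6.97, 53.4 and 17.3 CPM in 2i+LIF HP but none in CH+LIF HP, which makes it at least 45-fold lower when 3 counts are allowed over the group (edgeR adjusted p = 0.00307). Cdx2, a caudal homeobox factor of trophectoderm and posterior embryo (chr5:147300805-147307270), had 21.4, 9.81 and 6.71 CPM and likewise no counts in CH+LIF HP. It was at least 24.4-fold lower (edgeR adjusted p = 0.0137), a call lost without 2i+LIF HP replicate 1 or any 1 CH+LIF HP library (0.0579 to 0.106). In bulk libraries such as these, fewer cells expressing a gene and less RNA per cell cannot be told apart.

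T (Brachyury), the T-box factor of primitive streak and early mesoderm, had 13.5, 36.5 and 17.3 CPM in 2i+LIF HP against 2.6, 0 and 1.52 CPM in CH+LIF HP (fitted log2 fold change -4.06 ± 1.05, edgeR adjusted p = 0.0464). Tnfrsf19, a TNF receptor family member and known Wnt target, had 30.2, 64.3 and 45 CPM against 15.6, 6.2 and 6.09 CPM (log2 fold change -2.32 ± 0.62, edgeR adjusted p = 0.0488). Both lay without overlap between groups but close to the threshold. T was not called without 2i+LIF PO replicate 3 or any 1 library of CH+LIF LP, LIF LP, 2i+LIF HP, CH+LIF HP or LIF HP (adjusted p of 0.0502 to 0.25), nor by DESeq2 (0.22) or with the replicate block (0.073). Tnfrsf19 was not called without 2i+LIF LP replicate 2, any 1 library of CH+LIF LP, LIF LP or CH+LIF HP, 2i+LIF HP replicate 2 or 3, or LIF HP replicate 1 or 2 (0.0507 to 0.258).

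Several targets fell short of the edgeR threshold with the same direction. Lef1, a TCF/LEF factor, had 25.1, 50.1 and 29.7 CPM in 2i+LIF HP against 5.84, 4.29 and 0.762 CPM in CH+LIF HP (edgeR adjusted p = 0.0936). Nkd1, an intracellular feedback inhibitor, had 6.04 to 35.4 CPM against 0 to 2.39 CPM (edgeR adjusted p = 0.075). Tcf7, another TCF/LEF factor, had 11.6 to 16.3 CPM against 0.762 to 3.89 CPM (0.102). Cdx1 had 32.5, 70.3 and 15.3 CPM against 6.49, 3.82 and 6.09 CPM (edgeR adjusted p = 0.0618), and cyclin D1 (Ccnd1) had 266, 219 and 169 CPM against 99.3, 80.1 and 83 CPM (0.0772). Each of these 5 genes separated the groups without overlap, a property shared by 11 of the 13 tested targets and by 9.45% of all genes in the direction of lower values.

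Of 25 tested genes of the Wnt pathway itself, 1 rose and 1 fell, and the median was -0.42. Fzd5, a Frizzled receptor, rose from 20.4, 17.4 and 8.63 CPM in 2i+LIF HP to 56.4, 68.2 and 55.6 CPM in CH+LIF HP (fitted log2 fold change 1.91 ± 0.38, edgeR adjusted p = 0.00494). All 3 CH+LIF HP values exceeded the highest 2i+LIF HP value, and the call held without any 1 library. Bcl9l, a cofactor of beta-catenin that overlaps Cxcr5 on the other strand, fell from 106, 32.2 and 63.3 CPM to 14.3, 11 and 12.2 CPM (log2 fold change -2.43 ± 0.63, edgeR adjusted p = 0.0381). It lost its call without 2i+LIF HP replicate 1 or 3 or any 1 CH+LIF HP library (0.0933 to 0.2). Fzd7 had 3.72, 10.9 and 0.958 CPM against 30.5, 31.5 and 20.6 CPM (edgeR adjusted p = 0.066), and Gsk3b, the target of CHIR99021, had 167 to 272 CPM against 121 to 143.9 CPM (0.601).

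Of 16 tested genes of the Nodal and BMP pathways, 5 rose in CH+LIF HP, 0 fell and 11 were not called, where 1.1% of all genes rose and 0.921% fell. Of the 16 fitted log2 fold changes 5 were below 0, and the median was 0.66. Values were higher without overlap for 6 of the 16 and lower without overlap for 0, against 10.3% and 9.45% of all genes. Those that rose were the ligand Nodal, its secreted antagonists Lefty1 and Lefty2, and Id1 and Id3, inhibitors of bHLH factors that BMP signalling induces. Leaving out 1 library at a time gave between 2 and 7 genes that rose, and 7 rose without both libraries that stood apart. Tdgf1 (Cripto), the coreceptor of Nodal, which was listed among naive pluripotency genes, had the second smallest p-value of all genes.

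Tdgf1 (chr9:110939603-110946158) had 65.5, 10.4 and 33.5 CPM in 2i+LIF HP against 424, 615 and 375 CPM in CH+LIF HP. Its lowest CH+LIF HP library was well above its highest 2i+LIF HP library, with a log2 fold change of 3.68 ± 0.46 (edgeR adjusted p = 8.43e-05). Lefty2 (chr1:180893108-180899103) had 23.2, 9.81 and 2.88 CPM in 2i+LIF HP against 247, 340 and 204 CPM in CH+LIF HP (fitted log2 fold change 4.38 ± 0.68, edgeR adjusted p = 0.000798). Lefty1 (chr1:180935022-180938400) had 4.18, 10.9 and 4.79 CPM against 64.2, 57.7 and 44.2 CPM (log2 fold change 3.03 ± 0.63, edgeR adjusted p = 0.00694). The Lefty genes are close paralogs, so reads that fit both are lost or may be split between them. The calls of Tdgf1, Lefty1 and Lefty2 held without any 1 library, the largest adjusted p being 0.00365, 0.0474 and 0.0129.

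Nodal (chr10:61417972-61425338) rose from 20.4, 9.27 and 11.5 CPM to 31.8, 60.6 and 51 CPM (log2 fold change 1.78 ± 0.46, edgeR adjusted p = 0.0381). Its groups were separated by the gap between 20.4 and 31.8 CPM, and the call was lost without 2i+LIF HP replicate 2 or 3, CH+LIF HP replicate 2 or 3, or LIF HP replicate 3 (0.0515 to 0.212). Id3 (chr4:136143497-136145755) rose from 4.65, 6.54 and 0 CPM to 68.1, 51 and 42.6 CPM (log2 fold change 3.70 ± 0.90, edgeR adjusted p = 0.0237). Id1 (chr2:152736251-152737410) rose from 6.97, 19.1 and 20.1 CPM to 78.5, 46.3 and 95.2 CPM (log2 fold change 2.28 ± 0.60, edgeR adjusted p = 0.042). Id3 was not called without any 1 of the 2i+LIF HP libraries or CH+LIF HP replicate 1 or 2 (0.0686 to 0.121). Id1 was not called without any 1 of the 6 compared libraries, CH+LIF LP replicate 2, LIF LP replicate 2 or 3, or LIF HP replicate 1 or 3 (0.0511 to 0.169).

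Bmp4, the ligand, had 41.8, 70.3 and 132 CPM in 2i+LIF HP against 374, 426 and 462 CPM in CH+LIF HP, a log2 fold change of 2.38 ± 0.68 without overlap that did not pass (edgeR adjusted p = 0.075). Bmp4 overlaps Gm15217 and Gm15222 on the other strand. Id2 went the other way in its means, with 10.7, 73 and 53.7 CPM against 24, 11.9 and 21.3 CPM, and its values overlapped (edgeR adjusted p = 0.535). Bmp7, outside the lists and chosen after its values were seen, fell from 22.8, 28.9 and 41.2 CPM to 3.24, 7.16 and 6.09 CPM (log2 fold change -2.46 ± 0.64, edgeR adjusted p = 0.04). Its call was lost without 2i+LIF HP replicate 2 or 3, any 1 CH+LIF HP library or LIF HP replicate 1 or 2 (0.0504 to 0.183), and with counts thinned to the shallowest library (0.083).

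Most factors of the naive state did not pass the test. Of 20 tested naive pluripotency genes, 2 rose (Tdgf1 and Tbx3), 1 fell (Dppa3) and 17 were not called, with a median log2 fold change of 0.48. Of the 20 fitted values 16 were above 0. Values were higher without overlap for 7 of the 20 and lower without overlap for 2, against 10.3% and 9.45% of all genes. DESeq2 called 4 higher and 1 lower. Leaving out 1 library at a time gave between 1 and 3 genes that rose, and 4 rose without both libraries that stood apart. Nanog had 204, 204 and 99.7 CPM in 2i+LIF HP against 197, 244 and 203 CPM in CH+LIF HP (edgeR adjusted p = 0.821). Esrrb had 187, 116 and 73.8 CPM against 157.01, 181 and 218 CPM (0.584), and Klf2 317, 284 and 131 CPM against 453, 423 and 338 CPM, without overlap (edgeR adjusted p = 0.563). Tfcp2l1 had 585, 322 and 285 CPM in 2i+LIF HP against 197, 258 and 264 CPM in CH+LIF HP, lower in each library but not called (edgeR adjusted p = 0.584). Zfp42, the gene that carries the reporter on 1 allele, had 64.1, 29.4 and 37.4 CPM against 94.7, 100 and 117 CPM, without overlap (edgeR adjusted p = 0.0806, and 0.038 by DESeq2).

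Dppa3 (Stella), a maternal factor that protects DNA methylation marks in the early embryo (chr6:122626410-122630272), fell from 36.7, 142.8 and 73.8 CPM to 4.54, 0.477 and 0.762 CPM. Every 2i+LIF HP library was above every CH+LIF HP library, with a log2 fold change of -5.45 ± 0.97 (edgeR adjusted p = 0.00246) that was called without any 1 library (at most 0.0322). Tbx3, a T-box factor of naive cells that overlaps Tbx3os1 on the other strand, rose from 136, 126 and 88.2 CPM to 230, 332 and 405 CPM (log2 fold change 1.46 ± 0.35, edgeR adjusted p = 0.0236). It lost its call without 2i+LIF HP replicate 2 or 3 or CH+LIF HP replicate 2 or 3 (0.0854 to 0.148).

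Among 8 core pluripotency genes, 3 rose and 0 fell, where 1.1% of all genes rose and 0.921% fell. The median log2 fold change was 1.57, against -0.01 over all genes, and all 8 fitted values were above 0. Values were higher without overlap for 6 of the 8 and lower without overlap for 0, against 10.3% and 9.45% of all genes. Leaving out 1 library at a time gave between 2 and 4 genes that rose, and 4 rose without both libraries that stood apart. Utf1, a chromatin-associated factor of pluripotent cells (chr7:139943789-139945112), rose from 4.65, 0.545 and 3.83 CPM to 69.4, 86.8 and 89.9 CPM (log2 fold change 4.76 ± 0.75, edgeR adjusted p = 0.000875). All 3 CH+LIF HP values were far above the highest 2i+LIF HP value, and the call held without any 1 library. Foxd3, a forkhead factor, rose from 8.83, 2.73 and 0 CPM to 27.2, 32.9 and 28.2 CPM (log2 fold change 2.75 ± 0.65, edgeR adjusted p = 0.0194), a call lost without 2i+LIF HP replicate 2 or 3 or CH+LIF HP replicate 2 (0.0774 to 0.124).

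Besides the genes whose overlap is named in place, Ccnd1, Lef1, Tcf7, Tnfrsf19, Map2k1, Krt8, Otx2, Dnmt3a, Dnmt3b, Meg3, Pla2g7 and Phlda1 also overlap a gene on the other strand, and since the strand setting of the counting is not known here their values may hold reads of that gene.

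The POU and SOX factors at the centre of the network were not called. Sox2 had 440, 401 and 389 CPM in 2i+LIF HP against 583, 587 and 661 CPM in CH+LIF HP, higher without overlap but not called (edgeR adjusted p = 0.569). Pou5f1 (Oct4), which overlaps Gm19553 on the other strand and has copies elsewhere in the genome that can take its reads, had 37.2, 27.8 and 56.5 CPM against 58.4, 56.3 and 26.7 CPM, values that overlap (edgeR adjusted p = 0.902).

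**Figure D3:**
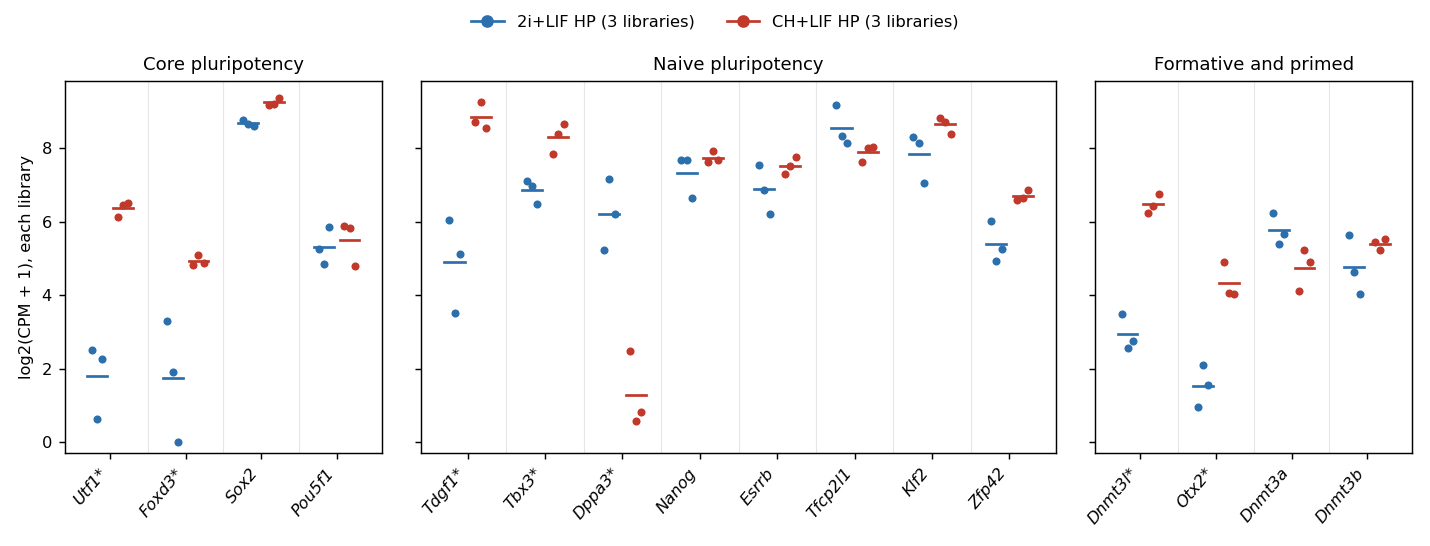
Each point is log2(CPM + 1) in 1 library for core, naive and formative genes, with bars at the mean of 3 libraries and asterisks for an edgeR adjusted p under 0.05. Utf1, Tdgf1 and Dnmt3l lie higher in all 3 CH+LIF HP libraries and Dppa3 lies lower, while Nanog, Esrrb and Pou5f1 overlap.

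Formative and primed genes, which mark the step after the naive state, had 2 of 12 tested genes that rose, 0 that fell and a median of 1.03. Leaving out 1 library at a time gave between 1 and 4 that rose, and 5 rose without both libraries that stood apart. Values were higher without overlap for 5 of the 12 and lower without overlap for 4, Dnmt3a among them, against 10.3% and 9.45% of all genes. Dnmt3l, the catalytically inactive partner of the de novo DNA methyltransferases (chr10:78041947-78063622, overlapping Aire on the other strand), rose from 10.2, 4.91 and 5.75 CPM to 74, 85.9 and 107 CPM. The log2 fold change was 3.63 ± 0.64 (edgeR adjusted p = 0.0021), and no single library decided the call. Otx2, a homeobox factor of the formative epiblast, rose from 0.93, 3.27 and 1.92 CPM to 29.2, 15.7 and 15.2 CPM (log2 fold change 3.27 ± 0.76, edgeR adjusted p = 0.0166). It was not called without 2i+LIF HP replicate 1 or 3 or CH+LIF HP replicate 1 (0.0726 to 0.0906). Dnmt3a had 73.9, 41.4 and 49.8 CPM against 16.2, 36.7 and 28.9 CPM (edgeR adjusted p = 0.306), and Dnmt3b had 48.8, 24 and 15.3 CPM against 42.8, 36.7 and 44.9 CPM (0.748), so the catalytic enzymes did not pass where Dnmt3l did. Of 12 tested genes on the DNA methylation list, which does not hold Dnmt3a, Dnmt3b or Dnmt3l, 0 rose and 1 fell, with a median of -0.07. It was Uhrf2, a paralog of the maintenance cofactor Uhrf1, which went from 69.7, 93.8 and 62.3 CPM to 30.5, 12.9 and 20.6 CPM (log2 fold change -1.83 ± 0.42, edgeR adjusted p = 0.0157, and 0.0796 to 0.151 without 2i+LIF HP replicate 2 or CH+LIF HP replicate 2 or 3).

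The LIF and STAT3 list had 0 of 16 tested genes that rose, 1 that fell and a median of 0.05. Gbx2, a homeobox factor known as a STAT3 target in these cells, fell from 13, 31.6 and 9.58 CPM to 1.3, 4.29 and 2.28 CPM (log2 fold change -2.72 ± 0.71, edgeR adjusted p = 0.0403). It lost its call without 2i+LIF HP replicate 2, any 1 CH+LIF HP library or LIF LP replicate 1 or 3 (0.051 to 0.278). Socs3, the feedback inhibitor of STAT3 signalling, had 14.9, 9.27 and 0.958 CPM in 2i+LIF HP against 24, 29.1 and 45.7 CPM in CH+LIF HP (edgeR adjusted p = 0.141). Lifr, the LIF receptor, had 19.6 to 49.3 CPM against 61 to 89.9 CPM (0.356).

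Among the 12 largest rises, Utf1 and Lefty2 are described above. Adam23, a membrane protein of the ADAM family without protease activity (chr1:63445891-63596276), was without counts in 2i+LIF HP and had 50.6, 116 and 118 CPM in CH+LIF HP, which is at least 154.2-fold higher when 3 counts are allowed over the group (edgeR adjusted p = 5.42e-05). Trf, which encodes the iron carrier transferrin and overlaps Gm20425, had 0 counts against 7.79, 35.8 and 20.6 CPM, at least 36.8-fold higher (edgeR adjusted p = 0.00674). Zfp423, a zinc finger factor that partners SMADs in BMP signalling, had 0 counts against 9.73, 21.5 and 12.2 CPM, at least 24.6-fold higher (0.000798). These 3 genes kept their calls without any 1 library. Soga3, with 0 counts against 11, 2.39 and 10.7 CPM, was at least 11.6-fold higher (edgeR adjusted p = 0.0157). It was not called without any 1 2i+LIF HP library or CH+LIF HP replicate 1 or 3 (0.0519 to 0.0817), nor by limma-voom (0.084).

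Genes with 1 to 3 pooled counts in 2i+LIF HP are given as ratios with counting intervals. Serpine2, a secreted protease inhibitor, had 0, 0.545 and 0.958 CPM against 7.79, 19.1 and 11.4 CPM, a ratio of 32.5 (95% counting interval 8.65 to 274, edgeR adjusted p = 0.0021). Bdh2, a cytosolic dehydrogenase, had 0, 1.64 and 0 CPM against 12.3, 17.7 and 17.5 CPM, a ratio of 25.5 (8.42 to 126, adjusted p = 0.00224 by edgeR). Ramp3, which modulates calcitonin-family receptors, had 0, 0.545 and 0 CPM against 7.79, 7.16 and 11.4 CPM (ratio 40.7, interval 6.92 to 1646, edgeR adjusted p = 0.00607, and 0.051 by limma-voom). Serpine2 and Bdh2 kept their calls in each alternative run. Manba, a lysosomal mannosidase, rose from 3.25, 1.09 and 0 CPM to 21.4, 34.3 and 54.8 CPM (log2 fold change 4.38 ± 0.77, edgeR adjusted p = 0.0021).

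The last pair of the 12 rested on fewer counts. Pde9a, a cGMP phosphodiesterase, had 45 counts against 2 (ratio 21.8, interval 5.70 to 186, edgeR adjusted p = 0.039) and was not called without any 1 of the 6 compared libraries (0.0503 to 0.166) or by limma-voom (0.12). Cacng7, a calcium channel subunit, had 38 counts against 1 (ratio 36.8, interval 6.22 to 1493, edgeR adjusted p = 0.049). It was not called in 17 of 21 fits that left out a library, all except those without CH+LIF HP replicate 3, 2i+LIF LP replicate 1 or 2, or 2i+LIF PO replicate 1 (0.0515 to 0.348), nor by limma-voom (0.12), with the replicate block (0.053) or with thinned counts (0.069).

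The 12 largest falls had no counts, or few, in CH+LIF HP. Cyp2c70, a cytochrome P450 of bile acid metabolism (chr19:40153353-40187333), had 10.2, 46.9 and 56.5 CPM in 2i+LIF HP but none in CH+LIF HP, at least 57.4-fold lower (edgeR adjusted p = 0.00224). Osbp2, an oxysterol-binding protein, had 12.1, 54.5 and 44.1 CPM and was at least 59.1-fold lower (adjusted p = 0.0021 by edgeR). St8sia2, a sialyltransferase that makes polysialic acid, had 18.1, 24 and 36.4 CPM and was at least 41.6-fold lower (edgeR adjusted p = 0.00201). In each of these, 2i+LIF HP replicate 1 was the lowest of its group, and the calls held without any 1 library. Dnase2b, an acid endonuclease that overlaps Uox on the other strand, had 7.44, 40.9 and 76.7 CPM and no counts in CH+LIF HP, at least 58.8-fold lower (edgeR adjusted p = 0.00461). DESeq2 did not call it (0.58), and all its 171 counts among the 6 libraries lay in 2i+LIF HP.

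Khdc1a and Pramel6 belong to multigene families known from the oocyte and early embryo, so reads may be split among copies. Khdc1a had 6.04, 145.5 and 95.8 CPM in 2i+LIF HP against 0.649, 0 and 0 CPM in CH+LIF HP, with 380 against 1 pooled counts and a 95% counting interval of 69.9 to 15522 for their ratio (edgeR adjusted p = 0.00142). Pramel6 fell from 27, 101 and 152.4 CPM to 2.6, 0.954 and 0.762 CPM (log2 fold change -5.96 ± 0.93, edgeR adjusted p = 0.000798). Both were called without any 1 library, and both were lowest in replicate 1 within 2i+LIF HP.

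Krt7, a keratin of simple epithelia and trophoblast that overlaps Gm671 on the other strand, had 1.86, 33.3 and 35.5 CPM in 2i+LIF HP but none in CH+LIF HP, at least 35.1-fold lower (edgeR adjusted p = 0.00674). It was the 1 gene called of 3 tested on the trophoblast list. Of the 5 defining trophoblast markers checked, Elf5 and Plac1 had no counts in either group, and the summed level was 3.86, 36.1 and 37.1 CPM in 2i+LIF HP and 0 to 0.48 CPM in CH+LIF HP, with most of it from Krt7 in 2i+LIF HP replicates 2 and 3. Krt8 and Krt18, partners in simple epithelial keratin filaments, had 16.3, 42 and 26.8 CPM and 8.37, 33.3 and 56.5 CPM in 2i+LIF HP. In CH+LIF HP they had 6.2 to 12.2 CPM and 6.2 to 12.9 CPM (edgeR adjusted p = 0.245 and 0.254). Within 2i+LIF HP, Krt7, Krt8, Krt18 and the trophoblast sum were lowest in replicate 1, where Cdx2 was highest.

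The other large falls were Gm11238, Arhgap20, Oc90, and Dkk1 and Cdx2 described above. Gm11238, which overlaps Gm11236 and Gm11237, had 6.51, 30 and 17.3 CPM against no counts, at least 29.9-fold lower (edgeR adjusted p = 0.0104). Its call was lost without 2i+LIF HP replicate 2 or any 1 CH+LIF HP library (0.0542 to 0.0793) and by DESeq2 (0.68). Arhgap20, a GTPase-activating protein that overlaps Arhgap20os on the other strand, had 9.3, 8.18 and 13.4 CPM against no counts, at least 16.8-fold lower (edgeR adjusted p = 0.0137, and 0.0558 to 0.11 without 2i+LIF HP replicate 3 or any 1 CH+LIF HP library). Oc90, an otoconial protein, had 4.18, 3.27 and 7.67 CPM against none, at least 7.91-fold lower (edgeR adjusted p = 0.0403). It was lost without any 1 of the 6 compared libraries, any 1 LIF HP library or 2i+LIF PO replicate 2 (0.0552 to 0.202).

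Markers of other cell types were low in both groups. The summed fibroblast markers were 3.53 to 22.7 CPM in 2i+LIF HP and 11.7 to 22.8 CPM in CH+LIF HP, with Col3a1, Dcn and Postn at 0 counts in both. Primitive endoderm markers summed to 3.86 to 15.1 CPM and 0.649 to 3.84 CPM, with Sox7 at 0 in both, and neural markers to 0.551 to 4.66 CPM and 5.84 to 13.5 CPM, with Hes5 and Olig2 among those at 0 in both. By edgeR, 0 genes were called among the tested genes of the mesendoderm (2), neural (9), primitive endoderm (5) and fibroblast (4) lists, of which 0, 4, 2 and 1 had an unadjusted p under 0.05. Each gene stands on 1 list only, and T, which was called lower, stands on the Wnt target list and not on the mesendoderm list. DESeq2 called 1 neural and 1 fibroblast gene higher, and limma-voom 1 neural and 1 primitive endoderm gene. The 20 genes of the 2-cell-like list that matched a symbol were too low to pass the low-count filter.

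The p53, cell cycle, ATF4 and glycolysis lists had 1 or 2 genes called in each, where 2.02% of all genes were called. Counts this small are given as a description, and the genes are described singly. Of 15 tested p53 targets 2 rose, with a median of 0.67. Ccng1, cyclin G1, went from 8.37, 14.2 and 13.4 CPM to 36.3, 64.4 and 57.1 CPM (log2 fold change 2.15 ± 0.41, edgeR adjusted p = 0.00347), a call that held without any 1 library. Eda2r, a TNF receptor family member, had 4 against 31 pooled counts (log2 fold change 2.73 ± 0.72, edgeR adjusted p = 0.0416). The call was lost without 2i+LIF PO replicate 3, CH+LIF LP replicate 2, LIF LP replicate 3, 2i+LIF HP replicate 1 or 2, CH+LIF HP replicate 2 or any 1 LIF HP library (0.05 to 0.521), with thinned counts (0.111), with the replicate block (0.057) or by limma-voom (0.179). Cdkn1a, the p53 target and cyclin-dependent kinase inhibitor p21, which stands on the cell cycle list, fell from 277, 268 and 259 CPM to 98.6, 135 and 75.4 CPM (log2 fold change -1.38 ± 0.36, edgeR adjusted p = 0.0426). It was the 1 gene called of 19 on that list, and it was not called without any 1 library of LIF LP, LIF HP, 2i+LIF HP or CH+LIF HP, 2i+LIF LP replicate 2, or CH+LIF LP replicate 2 or 3 (0.0515 to 0.252).

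On the ATF4 and amino acid list 1 of 18 tested genes rose, Slc7a3, a cationic amino acid transporter, from 14.9, 9.27 and 1.92 CPM to 73.3, 106 and 73.1 CPM (log2 fold change 3.18 ± 0.60, edgeR adjusted p = 0.00347). Of 20 glycolysis genes 1 rose and 1 fell, with a median of 0.36. Pdk1, the kinase that inhibits pyruvate dehydrogenase, rose from 6.97, 16.9 and 16.3 CPM to 37.6, 53.9 and 44.2 CPM (log2 fold change 1.78 ± 0.39, edgeR adjusted p = 0.0101). Ldhb, a lactate dehydrogenase subunit, fell from 60.9, 184 and 130 CPM to 35.7, 23.9 and 29.7 CPM (log2 fold change -2.07 ± 0.48, edgeR adjusted p = 0.0177). Both separated the groups without overlap. Pdk1 was not called without 2i+LIF HP replicate 1 or CH+LIF HP replicate 2 (0.0671 and 0.0731), and Ldhb without 2i+LIF HP replicate 2 or 3 or any 1 CH+LIF HP library (0.0542 to 0.132). By edgeR, 0 of 19 cholesterol synthesis, 0 of 18 adhesion and 0 of 19 germline genes were called, with 3, 6 and 5 at an unadjusted p under 0.05. DESeq2 and limma-voom each called 2 adhesion genes higher and 1 germline gene lower.

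Of 18 tested imprinted genes, 2 rose and 2 fell, with a median of -0.16. Slc38a4, a paternally expressed amino acid transporter, fell from 47.9, 137 and 106 CPM to 20.1, 11.4 and 13.7 CPM (log2 fold change -2.69 ± 0.53, edgeR adjusted p = 0.00494, and 0.0502 without CH+LIF HP replicate 2). Peg3, a paternally expressed zinc finger gene, fell from 55.8, 184 and 181 CPM to 33.7, 34.8 and 41.1 CPM (log2 fold change -1.94 ± 0.42, edgeR adjusted p = 0.0105). It was not called without 2i+LIF HP replicate 2 or 3 or CH+LIF HP replicate 1 or 2 (0.0634 to 0.0792). Gnas, the G-protein alpha subunit locus, which overlaps Nespas on the other strand, rose from 74.8, 60.5 and 70.9 CPM to 144.7, 155.99 and 207 CPM (log2 fold change 1.30 ± 0.29, edgeR adjusted p = 0.0136). It was not called without 2i+LIF HP replicate 2 or 3 or CH+LIF HP replicate 3 (0.0522 to 0.104), or with no filter on low counts (0.068). Mirg, a maternally expressed noncoding RNA of the Dlk1-Dio3 domain, rose from 24.2, 6.54 and 5.75 CPM to 51.3, 63.9 and 54.8 CPM (log2 fold change 2.16 ± 0.57, edgeR adjusted p = 0.0426). The call was lost without any 1 library of LIF LP or CH+LIF HP, 2i+LIF HP replicate 2 or 3, CH+LIF LP replicate 2 or LIF HP replicate 3 (0.0524 to 0.223). Meg3, of the same domain, had 756, 188 and 260 CPM against 729, 911 and 1647 CPM, which overlap (edgeR adjusted p = 0.356).

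Of 11 matrix and secreted genes, Serpine2 and Igfbp2 rose and Fbln1 fell. Igfbp2, an IGF-binding protein, went from 9.3, 8.18 and 2.88 CPM to 35.7, 68.2 and 49.5 CPM (log2 fold change 2.83 ± 0.58, edgeR adjusted p = 0.00674, and 0.0534 without 2i+LIF HP replicate 3). Fbln1, a basement membrane fibulin, went from 68.8, 104 and 87.2 CPM to 15.6, 32.9 and 22.8 CPM (log2 fold change -1.85 ± 0.42, edgeR adjusted p = 0.015, and 0.0525 to 0.116 without 2i+LIF HP replicate 2 or 3 or CH+LIF HP replicate 1 or 3). Over all 25 lists, 343 of 475 genes were tested, of which 24 rose and 16 fell.

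Set beside the other groups, the called genes differ mostly in where 2i+LIF HP stands. The mean of 2i+LIF HP was the lowest of the 7 groups for 91 of the 117 genes that rose, and the highest for 87 of the 98 that fell. CH+LIF HP was the highest group for 11 of the first and the lowest for 24 of the second. The same libraries chose these genes, so the counts are a description. Lefty2, for example, had a mean of 12 ± 10.4 CPM (SD, n = 3) in 2i+LIF HP, 264 ± 69.3 CPM in CH+LIF HP, 254 ± 169 CPM in 2i+LIF PO against 126 ± 35 CPM in LIF HP. Tdgf1 had 36.5 ± 27.7 CPM in 2i+LIF HP, 375 ± 66.2 CPM in 2i+LIF PO against 549 ± 106 CPM in LIF HP. Dppa3 had 84.4 ± 53.8 CPM in 2i+LIF HP against 2.71 ± 2.13 CPM in 2i+LIF PO. Dusp6 was an exception, since 2i+LIF PO (2.85 ± 0.753 CPM) and LIF HP (0.411 ± 0.711 CPM) were as low as 2i+LIF HP (3.37 ± 1.36 CPM). The label LIF HP, like CH+LIF HP, lacks the MEK inhibitor.

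**Figure D4:**
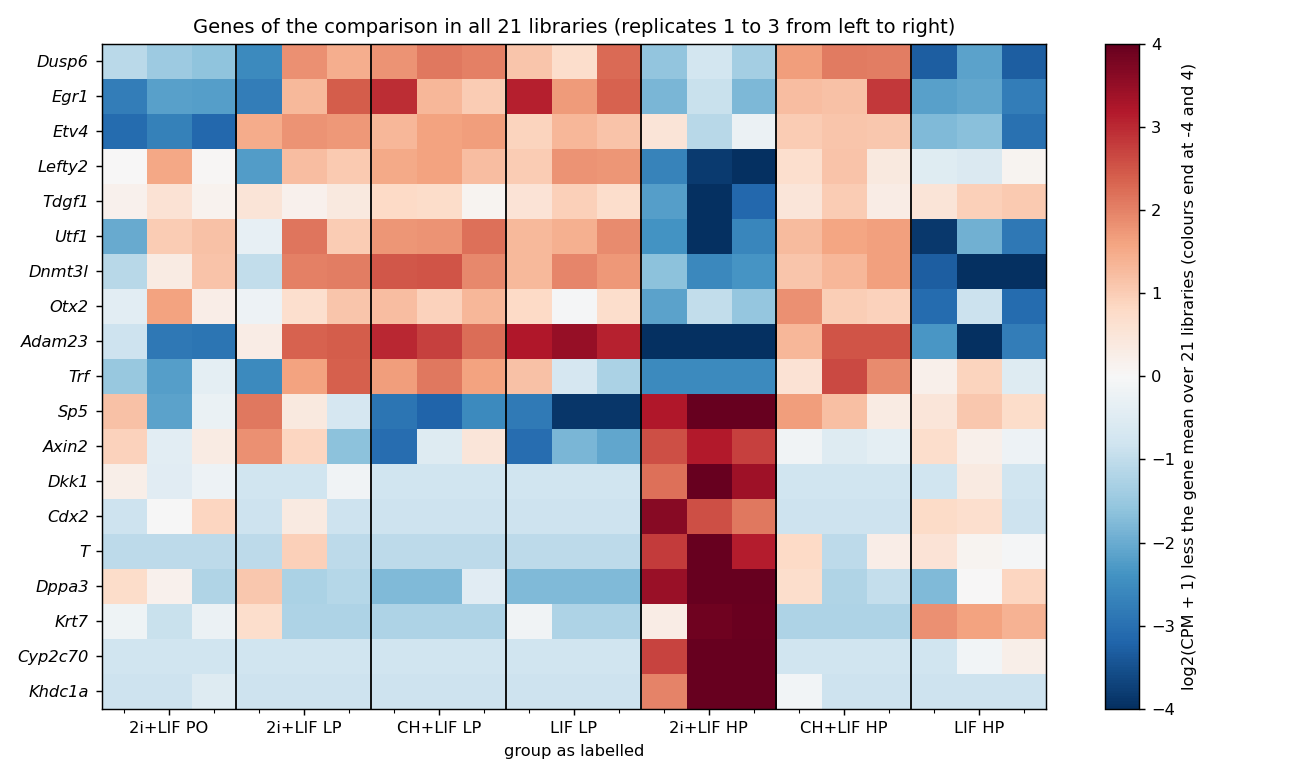
Colour gives log2(CPM + 1) less the gene's mean over 21 libraries, for 19 genes of the comparison (rows) in each library (columns, 7 groups of 3). Lefty2, Tdgf1 and Adam23 are low in the 2i+LIF HP columns, and Dppa3, Cyp2c70 and Khdc1a are high there.

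The same media were also compared at LP, with 6 libraries of other groups than those compared at HP. The libraries of both comparisons share 1 fit and its estimate of spread. At LP, 0 genes passed by edgeR, 950 had an unadjusted p under 0.05, DESeq2 called 25 and limma-voom 2. The libraries labelled 2i+LIF LP differed in Dusp6, which had 0.701 CPM in replicate 1, the library that stood apart, and 34.4 and 26.3 CPM in replicates 2 and 3, near the 33.4 to 41.8 CPM of CH+LIF LP. Of the 117 genes that rose at HP, 93 had a log2 fold change above 0 at LP (79.5%, against 53.3% of all genes), with a median of 0.51. Of the 98 that fell, 78 were below 0 at LP (79.6%, against 46.6%), with a median of -0.76. An unadjusted p under 0.05 in the same direction was found for 16 and 26 of them, and in the opposite direction for 0 and 0, where 2.58% and 6.34% of all genes had one in the higher and lower direction.

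Sp5 had 62.4, 18.5 and 8.39 CPM in 2i+LIF LP against 0.969, 0.605 and 1.52 CPM in CH+LIF LP, lower in each library of CH+LIF LP (log2 fold change -4.79, edgeR adjusted p = 0.139). Utf1 had 22.4, 127 and 58.7 CPM against 98.8, 102 and 135 CPM (0.68, edgeR adjusted p = 0.694). Cyp2c70, St8sia2 and Dnase2b, which 2i+LIF HP expressed, had no counts in any of these 6 libraries. For Tdgf1 the difference between media was larger at HP than at LP (interaction, edgeR adjusted p = 0.0219), with 431, 343 and 399 CPM in 2i+LIF LP against 530, 504 and 327 CPM in CH+LIF LP. Adam23, with 24.5, 105 and 110 CPM in 2i+LIF LP against 165, 136 and 95.7 CPM in CH+LIF LP, was the other gene whose interaction passed (0.00471), these 2 genes being 0.0188% of those tested.

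**Figure D5:**
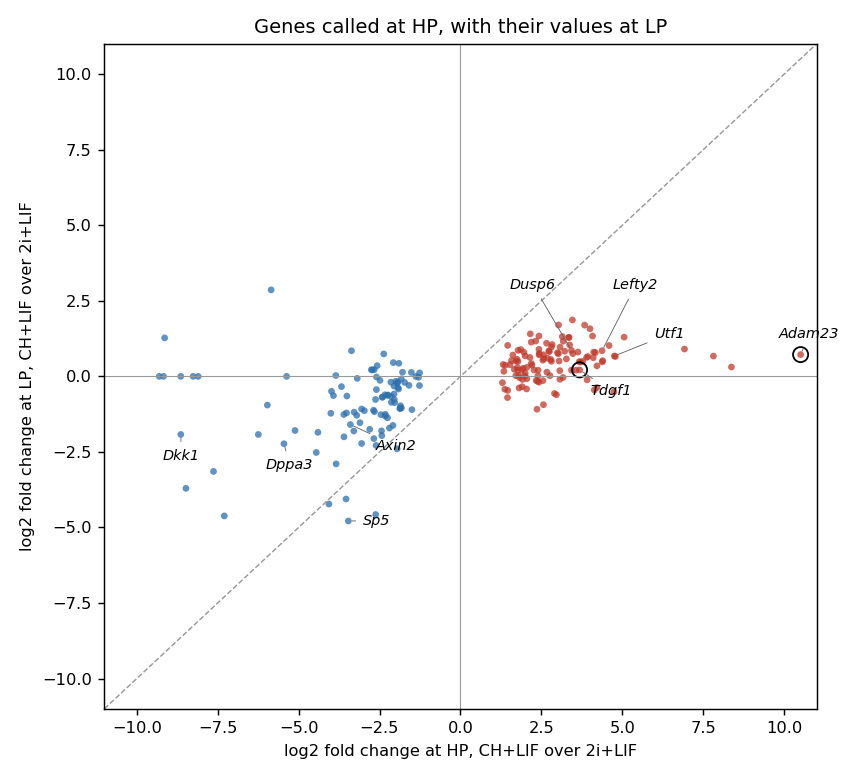
Each point is 1 of the 215 genes called at HP, with the log2 fold change of CH+LIF over 2i+LIF at HP (horizontal) and at LP (vertical). The dashed line marks equal values and black circles the 2 genes with an interaction under 0.05, and the points share the HP direction at LP for 93 of 117 genes that rose and 78 of 98 that fell.

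Across all 21 libraries, the genes whose log2 CPM followed Dusp6 most closely were Tiparp (Pearson r = 0.962), Bmp4 (0.951) and Pla2g7 (0.95), out of 10516 genes that reached 5 CPM in at least 1 group. The libraries share groups and depth, so r is a description. Tiparp, an ADP-ribosyltransferase induced by the aryl hydrocarbon receptor, rose from 25.1, 39.8 and 27.8 CPM to 90.2, 87.3 and 141.7 CPM (log2 fold change 1.78 ± 0.39, edgeR adjusted p = 0.0127, and 0.0626 to 0.084 without 2i+LIF HP replicate 1 or 3 or CH+LIF HP replicate 3). Pla2g7 rose with a log2 fold change of 3.47 (edgeR adjusted p = 0.0326). Its adjusted p was 0.051 to 0.189 without any 1 2i+LIF HP library or CH+LIF HP replicate 2 or 3. Bmp4 was not called, as given above. The genes that followed Sp5 were Cdo1 (0.929), Nr2f2 (0.91) and Epp13 (0.907). Cdo1, cysteine dioxygenase, fell from 87.4, 296 and 234 CPM to 30.5, 16.7 and 27.4 CPM (log2 fold change -3.05 ± 0.45, edgeR adjusted p = 0.000798), and it was called without any 1 library. Nr2f2 was not called (log2 fold change -1.68, edgeR adjusted p = 0.232). Epp13 fell with a log2 fold change of -1.96 (edgeR adjusted p = 0.0415). Its call was lost without 2i+LIF HP replicate 2 or 3 or any 1 CH+LIF HP library (0.0687 to 0.24).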

How the data were processed

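For each library the authors deposited a table of raw counts over 31053 Ensembl gene IDs. Per the submitters' processing notes, bcl2fastq, STAR 2.6.0a, HTSeq and the mm10 build were used; the annotation, strand setting and filters are not given in the sources used here. Libraries started from 125 ng of total RNA, per the labels' protocols. Rows that name no gene (unassigned, ambiguous or multiply aligned reads) stayed out of library sizes and tests, and genes held 51.1 to 55.6% of the entries in the 6 libraries. Symbols and positions came from GENCODE M21 (GRCm38), which held 31011 of the IDs. Of these, 11038 overlap another listed gene, so without the strand setting such genes may share or lose reads.

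All 21 libraries entered 1 quasi-likelihood fit in edgeR 4.0.16 (R 4.3.3), with 7 group coefficients, 14 residual degrees of freedom, TMM scaling and filterByExpr. Two-sided p-values were adjusted by Benjamini-Hochberg over 10643 genes, with a threshold of 0.05. SE is the absolute log2 fold change over the square root of F. CPM use TMM-scaled totals. Folds against a group without counts allow 3 counts over that group, and ratios against 1 to 3 counts carry 95% intervals of counting error only, from pooled counts and totals without TMM. Correlations used log2 CPM with a prior count of 2. The fit was tested on simulated counts. Genes named are list genes, the 12 largest rises and 12 largest falls among called genes with a mean of at least 5 CPM in 1 group and no overlap, genes called in the interaction, and the 3 genes most like Dusp6 or Sp5. Bmp7 and the genes under the other observations fall outside this rule and were chosen after their values were seen. The comparison, the lists and the motif were chosen with earlier results of these data known.

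Alternatives were DESeq2 1.42.0 as test or as scaling, no low-count filter, thinned counts, a fit of the compared groups alone, the replicate block, limma-voom (limma 3.58.1) with quality weights, removal of mitochondrial genes and Gm42418, and leaving out libraries. Leaving out each library outside the compared groups and a log2 fold change minimum of 2 were added after seeing the data. Same-numbered libraries of the compared groups correlated at -0.14 to 0.05 in their deviations from group means, and differently numbered ones at -0.06 to 0.19. With 3 libraries per group these values cannot decide whether the numbers mark a shared day or culture. Some members of the lists are not reported here.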

Additional observations from a re-analysis of the deposited data

Results flagged for a closer look

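The difference between CH+LIF and 2i+LIF was itself tested between HP and LP, and 2 genes passed, Adam23 (edgeR adjusted p = 0.00471) and Tdgf1 (0.0219). Adam23, which had no counts in the 3 libraries of 2i+LIF HP, had 24.5, 105 and 110 CPM in 2i+LIF LP, and it was higher in all 3 CH+LIF HP libraries than in any 2i+LIF HP library. Tdgf1 had 65.5, 10.4 and 33.5 CPM in 2i+LIF HP and 431, 343 and 399 CPM in 2i+LIF LP. The CH+LIF values of both genes were of like size at HP and LP, with 50.6 to 118 CPM and 95.7 to 165 CPM for Adam23, and 375 to 615 CPM and 327 to 530 CPM for Tdgf1. The 2i+LIF LP group includes the library that stood apart, and its replicates differed in Dusp6 (0.701, 34.4 and 26.3 CPM). Their part in these differences was not tested.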

How the results depend on the processing

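For CH+LIF HP against 2i+LIF HP, the count of 215 genes became 340 with the DESeq2 test (176 higher, 164 lower), 354 with no filter on low counts (187 lower), 336 with only the compared groups in the fit (186 lower), 436 with limma-voom (272 lower), and 543 without both libraries that stood apart (265 higher, 278 lower). Leaving out 1 library gave 99 to 361 genes, with 53 to 178 higher and 39 to 183 lower. The lowest count was without 2i+LIF HP replicate 2 and the highest without 2i+LIF LP replicate 1. The share of higher genes was 54.4%, against 37.6% by limma-voom and 63.8 to 66.1% without a CH+LIF HP library. At LP the count of 0 became 25 with DESeq2, 133 with no filter and 2 with limma-voom, and 0 to 12 without 1 library. The interaction count of 2 became 35 with DESeq2, 48 with no filter, 1 with only the compared groups, 39 without both libraries that stood apart and 18 with limma-voom, and 1 to 26 without 1 library.

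With the replicate block, 218 genes were called at HP, of which 206 were among the 215, 0 at LP and 2 in the interaction. The labels do not say whether same-numbered libraries share a day or culture. A minimum log2 fold change of 2, chosen after seeing the data, left 164 genes. Of 78 called genes followed through the alternatives, 78 kept their direction in each of up to 30 alternatives and 33 stayed past the threshold in each. With 1132126 counts in the shallowest library, 3 counts correspond to a few CPM, and the low-count filter left low genes out of the main fit. The causes of these changes were not tested.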

Other observations

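The genes here were chosen after their values were seen, among those called at HP and outside the lists. Tlx2, a homeobox factor, fell and had 33.5, 63.8 and 50.8 CPM in 2i+LIF HP against 3.24, 2.39 and 0.762 CPM in CH+LIF HP (fitted log2 fold change -4.45 ± 0.70, edgeR adjusted p = 0.000798), and it was called without any 1 library. Msx1, another homeobox factor, had 71 counts against 1, a ratio of 73.2 with a 95% counting interval of 12.7 to 2933 (edgeR adjusted p = 0.0116, and 0.0632 to 0.127 without 2i+LIF HP replicate 2 or 3 or CH+LIF HP replicate 1 or 2). Gpnmb, a transmembrane glycoprotein, had 67.4, 358 and 504 CPM against 23.4, 22.9 and 30.5 CPM (-3.60 ± 0.53, edgeR adjusted p = 0.000798), and Tnni1, slow skeletal troponin I, 68.3, 170 and 182 CPM against 19.5, 10.5 and 2.28 CPM (-3.67 ± 0.56, 0.000798). All 4 genes were lowest in replicate 1 within 2i+LIF HP.

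Among the genes that rose, Txnip, a thioredoxin-binding arrestin that restrains glucose uptake and overlaps Gm15441 on the other strand, had 4.65, 15.3 and 4.79 CPM against 58.4, 121 and 78.4 CPM (log2 fold change 3.34 ± 0.67, edgeR adjusted p = 0.00496). Its relative Arrdc4 had 7.44, 2.73 and 2.88 CPM against 43.5, 35.8 and 37.3 CPM (3.07 ± 0.49, edgeR adjusted p = 0.000936). L1td1, an RNA-binding protein of pluripotent cells, had 222, 57.8 and 75.7 CPM against 619, 665 and 600 CPM (2.40 ± 0.40, edgeR adjusted p = 0.00142). Zdbf2, an imprinted gene, had 57.2, 40.9 and 40.3 CPM against 189, 210 and 243 CPM (2.21 ± 0.44, edgeR adjusted p = 0.00495). The groups did not overlap for any of these 4 genes, and each was called without any 1 library.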
